A study of Bos taurus with 24 samples.

Results

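Small nucleolar RNAs (snoRNAs) were read out in single bovine metaphase II oocytes. The members are all rows of the expression table that carry an Ensembl gene ID and a symbol starting with SNORD (box C/D class) or SNORA (H/ACA class), and there were 251 of them among 17071 rows, 113 of box C/D and 138 of H/ACA. Rows that share a symbol were kept apart by ID.

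The study asked whether microinjection by itself changes the transcriptome of oocytes, and compared 12 siRNA injected with 12 non-injected oocytes. The siRNA injected oocytes carry the genotype label scrambled siRNA injected; they had been denuded of cumulus cells, injected while at the germinal vesicle stage with commercial non-specific siRNA mixed with the fluorescent tracer Dextran-TRITC, and kept only if they glowed red. The non-injected oocytes carry the label wild type and received neither siRNA nor dextran, so needle, siRNA and dextran cannot be told apart as sources of a difference. Oocytes of both groups came from slaughterhouse ovaries, were held for 16 h in roscovitine, an inhibitor of cyclin-dependent kinases that delays the resumption of meiosis, then matured for 22 h, and were collected with a first polar body. The labels do not say which oocytes share an animal, so p-values measure the spread between oocytes.

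snoRNAs are short nucleolar RNAs that guide chemical modification of other RNAs by base pairing. Box C/D snoRNAs, bound by fibrillarin, NOP56, NOP58 and SNU13, direct methylation of the ribose 2'-oxygen, and H/ACA snoRNAs, bound by dyskerin, NHP2, NOP10 and GAR1, direct the conversion of uridine to pseudouridine, in both cases mostly on ribosomal RNA. In mammals most of them are cut out of introns of host genes, and the mature forms have no long poly(A) tail. A fully grown oocyte has largely stopped transcription and, by metaphase II, has disassembled its nucleolus. CEL-seq2 starts cDNA synthesis from poly(A) and tags each molecule with a unique molecular identifier (UMI), so a snoRNA row can hold a tailed processing form, an unspliced host transcript or a primer that bound elsewhere; which of these was captured was not tested.

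The deposited RPM values could be turned back into whole UMI counts. For this they were read as shares of the oocyte's UMIs after a correction for repeated UMIs, with its capacity found from the values. Depth ran over 204285 to 382077 UMIs (median 274983) for siRNA injected and over 134080 to 415554 UMIs (median 288777.5) for non-injected oocytes, so that a single UMI was worth 2.27 to 7.35 RPM. RPM is a share of the RNA captured from an oocyte, so fewer molecules of a snoRNA and more of other RNAs cannot be told apart. Of 12 oocyte genes such as ZP2, GDF9 and MOS, 10 matched a row, with a median level of 548 RPM. Of 17 cumulus and granulosa genes 13 matched, with a median of 2.01 RPM. Their summed level was 339 to 595 RPM in siRNA injected and 356 to 513 RPM in non-injected oocytes. Most of it came from STAR (262 RPM). HAS2 (86.4 RPM), INHBA (39.9 RPM), PTGS2 (25.5 RPM) and CYP19A1 (15.8 RPM) were also above 10 RPM. The rest of the list was lower, with FSHR, CYP11A1 and NR5A1 near 0.

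The member rows, SNORD and SNORA, together took 0.0665% of the RPM. Rows of the box C/D snoRNA U3, which are named without SNORD and are not members, took 0.128%. The member rows held 4837 UMIs over all 24 oocytes, 2098 in box C/D rows and 2739 in H/ACA rows. A member row held a median of 7 UMIs in the box C/D class and 3.5 in the H/ACA class. In 210 of the 251 rows the total was under 24 UMIs, which is less than 1 per oocyte. A further measure of this sparseness is that 47 rows held a single UMI in all. Another 14 rows held none, 6 of box C/D and 8 of H/ACA. Among these 14 was a row each of SNORD88, SNORD113 and SNORA73, symbols whose other rows held UMIs. A count of 0 over 6767985 UMIs allows a level of up to 0.443 RPM, by counting error only. At the other end, 15 rows had a mean of at least 10 RPM, 5 of box C/D and 10 of H/ACA, and 6 rows were above 0 in every oocyte, namely the 2 leading SNORA20 rows, the 2 leading SNORD14 rows, SNORD10 and a SNORA48 row.

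**Figure D1:**
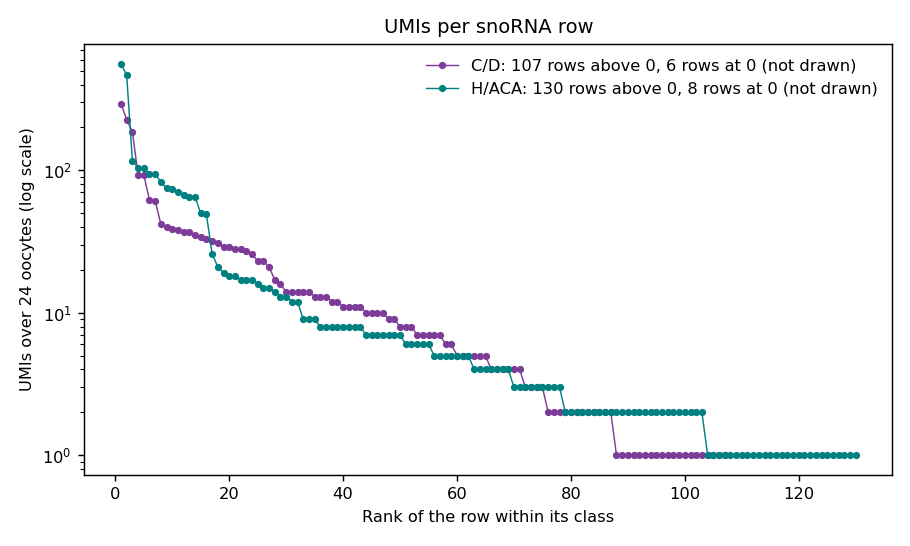
UMIs over all 24 oocytes (log axis) of each snoRNA row against the rank of the row within its class, box C/D in purple and H/ACA in green; rows at 0 are not drawn. The H/ACA class starts with 2 rows of 562 and 465 UMIs, and both classes end in long tails of rows with 1 or 2 UMIs.

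Few symbols carried most of the signal. The 2 leading rows, both named SNORA20, held 21.2% of the UMIs of all member rows and 37.5% of those of H/ACA rows. Among the SNORD rows the 2 leading ones, SNORD10 and a SNORD14 row, held 24.8% of the UMIs of these rows. The members bear 132 symbols, 54 of which stand for more than 1 row (173 rows in all), and reads of near-identical copies may have been split among such rows, so that the level of any single copy is uncertain. The copies were unequal in some families and even in others. SNORA20 had 5 rows with 562, 465, 13, 6 and 1 UMIs, and SNORA42 had 7 rows with 79.6% of its 147 UMIs in the leading row. SNORA48 had 8 rows, of which the leading row held 20.8% of 500 UMIs, and SNORA33 had 3 rows of 65 to 71 UMIs each.

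The classes differed in how their summed level compared between the groups. Box C/D rows summed to 111 to 308 RPM (median 201) in siRNA injected oocytes, against 112 to 675 RPM (median 342) in non-injected oocytes. Each of the 12 siRNA injected oocytes lay below the non-injected median, and 7 of the 12 non-injected oocytes lay above the highest siRNA injected oocyte, although the lowest non-injected oocyte, number 5, was as low as the lowest siRNA injected oocyte. The means were 205 ± 67.5 RPM in siRNA injected and 363 ± 164 RPM in non-injected oocytes (SD, n = 12 each), a ratio of 0.564. Their difference, -158 RPM, was smaller in size than the non-injected SD and larger than the siRNA injected SD. The spread among non-injected oocytes was wide, with number 12 at 675, number 9 at 558, number 2 at 496 and number 10 at 489 RPM. These 4 oocytes held 233600 to 380239 UMIs and number 5 held 265559, and the part of depth in the sums was not tested.

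H/ACA rows summed to 235 to 573 RPM (median 384) in siRNA injected oocytes and to 243 to 548 RPM (median 372) in non-injected oocytes. The ranges overlapped almost fully, and the means were 395 ± 98.4 RPM in siRNA injected and 368 ± 80.0 RPM in non-injected oocytes (SD, n = 12 each). Box C/D rows thus made up 34.0% ± 7.42 of the snoRNA RPM in siRNA injected oocytes, against 47.7% ± 10.1 in non-injected oocytes, and again all 12 siRNA injected oocytes were below the non-injected median. These sums are descriptions and carry no test.

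**Figure D2:**
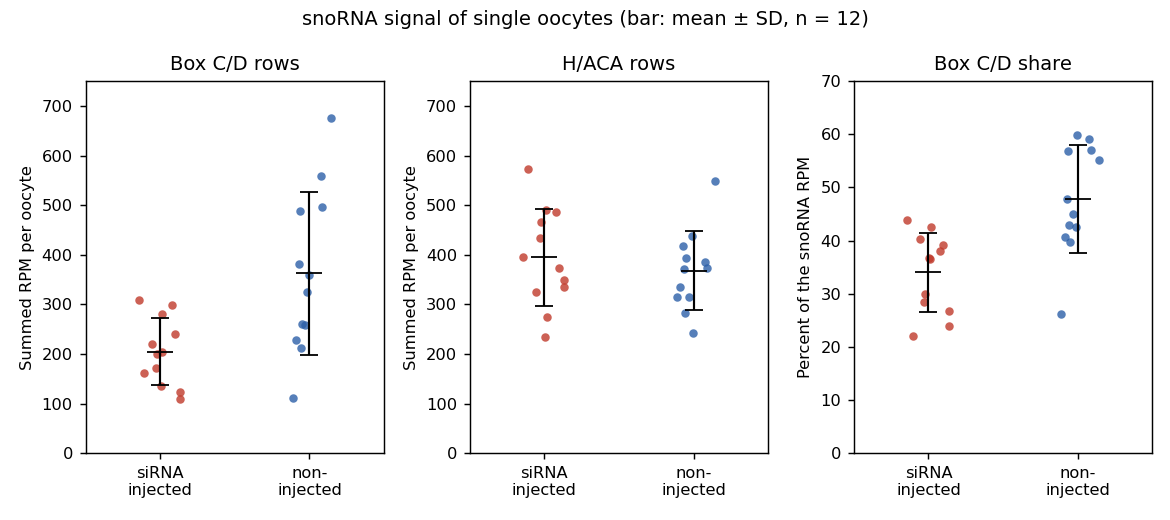
Summed RPM of box C/D rows (left) and H/ACA rows (middle) and box C/D rows as a percent of the RPM of SNORD and SNORA rows (right), for each of 12 siRNA injected (red) and 12 non-injected (blue) oocytes, with mean and SD. Box C/D averaged 205 RPM in siRNA injected and 363 RPM in non-injected oocytes, and H/ACA averaged 395 RPM in siRNA injected and 368 RPM in non-injected oocytes.

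The box C/D sum was also lower in siRNA injected oocytes without the SNORD116 family, and without the rows with a mean of at least 10 RPM. Without the 13 SNORD116 rows it was 163 ± 52.4 RPM in siRNA injected and 291 ± 132 RPM in non-injected oocytes (SD, n = 12 each). All 12 siRNA injected oocytes were again below the non-injected median. The 108 box C/D rows with a mean under 10 RPM were also summed. That sum was 120 ± 44.2 RPM in siRNA injected and 204 ± 94.8 RPM in non-injected oocytes (SD, n = 12 each). Here 9 siRNA injected oocytes were below the non-injected median and 3 above it. The lowest non-injected oocyte (65.2 RPM) was as low as the lowest siRNA injected oocyte (65.7 RPM). Of the 47 box C/D rows with at least 10 UMIs, 40 (85.1%) had a lower mean RPM in siRNA injected than in non-injected oocytes, beside 43.3% of all 11741 rows with at least 10 UMIs. The H/ACA rows did not share this: 10 of 32 (31.2%) had the lower mean in siRNA injected oocytes. The median log2 ratio of the means, with 1 RPM added, was -0.64 over the box C/D rows, 0.14 over the H/ACA rows and 0.06 over all other rows of that depth. Among all rows above 0 the counts were 80 of 107 for box C/D and 63 of 130 for H/ACA, beside 44% of all rows, and among rows above 0 with a mean under 10 RPM they were 75 of 102 for box C/D and 59 of 120 for H/ACA, beside 43.2% of all such rows. Rows of a class share oocytes and, in part, sequence, so these counts carry no test either.

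**Figure D3:**
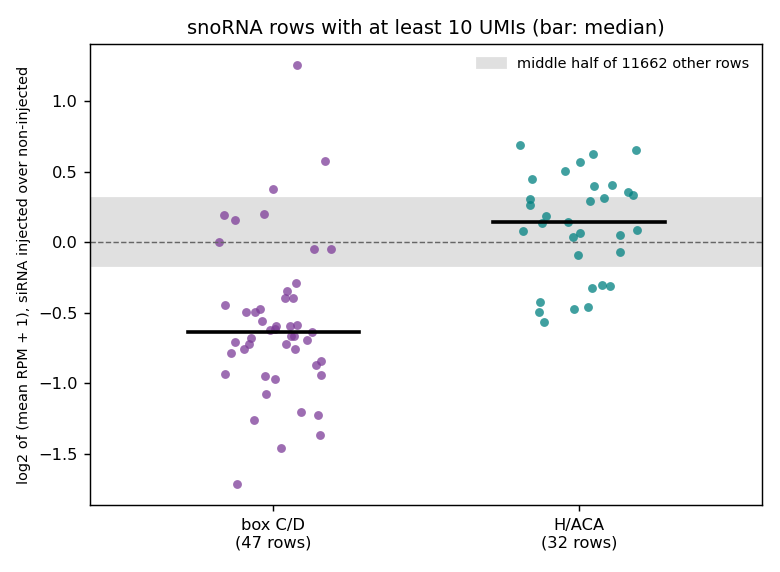
Log2 ratio of mean RPM (1 RPM added), siRNA injected over non-injected oocytes, for the 47 box C/D and 32 H/ACA rows with at least 10 UMIs; the bars are class medians (-0.64 and 0.14) and the grey band is the middle 50% of 11662 other rows. Most box C/D rows sit under the band and most H/ACA rows inside or above it.

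The 7 box C/D rows of that depth that were not lower in siRNA injected oocytes were SNORD18, SNORD110, SNORD47, SNORD16, a SNORD22 row and 2 SNORD116 rows. SNORD18 was level, with 8.37 ± 5.70 RPM in siRNA injected and 8.35 ± 7.87 RPM in non-injected oocytes (SD, n = 12 each). SNORD16 stood farthest out, with 8 UMIs in siRNA injected and 2 UMIs in non-injected oocytes.

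The limma test was run on log2(RPM + 5) over the 7256 rows with a mean of at least 10 RPM, 15 of them snoRNA rows, and a row was called where the p adjusted by Benjamini-Hochberg was under 0.05 and the change exceeded 1.2-fold. It called 1 of the 15, a SNORD14 row that was lower in siRNA injected oocytes, where 0.138% of all rows tested were called lower and 0.221% were called in either direction. The 14 other rows did not pass; at an unadjusted p under 0.05 there were 2 rows, this one and a SNORD116 row, both lower, beside 5.72% of all rows lower at that p. All 5 box C/D rows had negative fold changes, and the 10 H/ACA rows had 4 negative and 6 positive ones.

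SNORD14, known as U14, is a box C/D snoRNA needed in yeast for cutting out the small-subunit ribosomal RNA, which it also guides to be methylated. The called row (ENSBTAG00000043480) measured 3.91 to 40.9 RPM (median 13.9) in siRNA injected oocytes, against 21.7 to 63.8 RPM (median 43.1) in non-injected oocytes. Apart from siRNA injected oocyte 10, which was high, and non-injected oocyte 5, which was low, the groups did not overlap. The means were 17.1 ± 12.4 RPM in siRNA injected and 45.6 ± 12.1 RPM in non-injected oocytes (SD, n = 12 each), from 60 UMIs in siRNA injected and 167 UMIs in non-injected oocytes. The log2 fold change was -1.36 with a standard error of 0.25 (limma adjusted p = 0.0302), and all 12 siRNA injected oocytes were below the non-injected median, which held for 1.03% of the rows tested. The call was close to its threshold: it was lost when non-injected oocyte 8, 10 or 11 was left out (adjusted p = 0.0506, 0.0568 and 0.0569) and with edgeR on recovered counts of the same rows (adjusted p = 0.0551), with fold changes of -1.33 to -1.41 on the log2 scale. DESeq2 called no snoRNA row, but gave an adjusted p to only 2 of the 15, both SNORA20; it called 3.27% of the rows of at least 10 RPM and 3.03% of all rows above 0 to which it gave one.

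The other abundant SNORD14 row (ENSBTAG00000042134) measured 4.77 to 34.6 RPM (median 17.6) in siRNA injected oocytes and 3.35 to 59.3 RPM (median 35.1) in non-injected oocytes. All 12 siRNA injected oocytes were below the non-injected median here too, but 3 non-injected oocytes (numbers 3, 5 and 6) were as low as the lower siRNA injected oocytes. Its log2 fold change was -0.48 with a standard error of 0.32 (limma adjusted p = 0.574). Non-injected oocyte 6 had the highest value of the called row (63.8 RPM) and the lowest of this row (3.35 RPM). The log2 ratio of the called row to this row, with 5 RPM added to each, was -0.18 ± 0.77 in siRNA injected oocytes, against 0.71 ± 1.03 in non-injected oocytes (SD, n = 12 each), a difference of -0.89 (two-sided permutation test with 100000 permutations, p = 0.0233, for a pair chosen after its values were seen). Whether reads were assigned to the wrong copy was not tested. The 3 remaining SNORD14 rows held 5, 2 and 1 UMIs. Summed over its 5 rows, SNORD14 measured 9.53 to 68.1 RPM (median 31.0) in siRNA injected oocytes, against 25.4 to 119 RPM (median 81.2) in non-injected oocytes.

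SNORD10, which in human lies in an EIF4A1 intron and guides methylation of the U6 spliceosomal RNA, was the most abundant row named SNORD. It measured 10.2 to 54.1 RPM (median 33.4) in siRNA injected and 7.24 to 120 RPM (median 36.8) in non-injected oocytes, and its log2 fold change was -0.26 with a standard error of 0.33 (limma adjusted p = 0.796). What set it apart was the spread among non-injected oocytes: the 6 oocytes 2, 8, 9, 10, 11 and 12 lay between 50.1 and 120 RPM and the others between 7.24 and 23.5 RPM. The variance of its counts was 8.41 times the variance of counting alone in non-injected and 2.04 times in siRNA injected oocytes, where the median over the 5257 other rows of 60 to 600 UMIs was 1.72 in siRNA injected oocytes, against 1.41 in non-injected oocytes. The 4 non-injected oocytes with the highest box C/D sums are among those 6, but SNORD10 is itself part of those sums.

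SNORD116 is an orphan box C/D family without a settled ribosomal RNA target, known in human from the imprinted Prader-Willi region, where it is made from the paternal chromosome. Its 13 rows held 422 UMIs, 8 to 93 each. The leading row (ENSBTAG00000047923) measured 0 to 18.1 RPM (median 6.03) in siRNA injected oocytes, against 0 to 32.5 RPM (median 19.6) in non-injected oocytes. All 12 siRNA injected oocytes were below the non-injected median, while non-injected oocytes 3 and 5 were as low as siRNA injected ones. Its log2 fold change was -0.90 with a standard error of 0.30 (limma adjusted p = 0.179), which did not pass. Over the family, 10 of the 13 rows had a lower mean in siRNA injected oocytes. The summed level was 41.8 ± 23.3 RPM in siRNA injected and 72.4 ± 34.5 RPM in non-injected oocytes (SD, n = 12 each). In the sum, 10 of 12 siRNA injected oocytes were below the non-injected median. The difference of the means, -30.6 RPM, was smaller in size than the non-injected SD and larger than the siRNA injected SD.

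**Figure D4:**
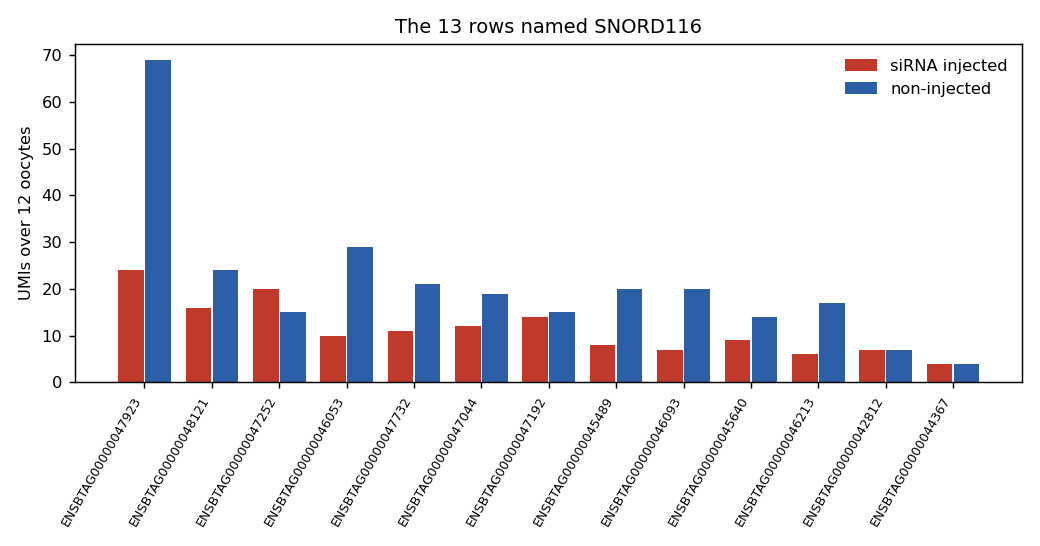
UMIs over 12 siRNA injected (red) and 12 non-injected (blue) oocytes for each of the 13 rows named SNORD116. The leading row held 24 UMIs in siRNA injected and 69 UMIs in non-injected oocytes, and ENSBTAG00000047252 was the only row with more in siRNA injected oocytes (20 UMIs, against 15 UMIs in non-injected oocytes).

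SNORD94, in human another guide of U6 methylation, closed the abundant box C/D rows with 2.47 to 23.4 RPM (median 8.10) in siRNA injected and 0 to 40.6 RPM (median 12.9) in non-injected oocytes. The ranges overlapped, and its log2 fold change of -0.38 with a standard error of 0.29 did not pass (limma adjusted p = 0.644).

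Among the H/ACA rows SNORA20, which in human lies in an intron of TCP1 and guides pseudouridylation of ribosomal RNA, was the most abundant. Its leading row (ENSBTAG00000042757) measured 44.9 to 111 RPM (median 80.2) in siRNA injected and 29.4 to 126 RPM (median 75.7) in non-injected oocytes, and the next (ENSBTAG00000042183) 41.9 to 116 RPM (median 66.4) in siRNA injected and 29.4 to 91.3 RPM (median 60.9) in non-injected oocytes. The groups overlapped in both rows, with log2 fold changes of 0.17 ± 0.18 and 0.28 ± 0.17 (standard error; limma adjusted p = 0.743 and 0.530). No other SNORD or SNORA row held as many UMIs as these.

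SNORA48, placed in human in an intron of EIF4A1 beside SNORD10, had 5 rows with a mean of at least 10 RPM. Their means were 11.3 to 12.2 RPM in siRNA injected and 11.6 to 17.6 RPM in non-injected oocytes, 4 of the 5 had negative log2 fold changes (-0.42 to -0.21) and the other was 0.06, and none passed (limma adjusted p = 0.594 to 0.963). Summed over its 8 rows, SNORA48 measured 13.6 to 120 RPM (median 62.0) in siRNA injected and 39.6 to 160 RPM (median 74.7) in non-injected oocytes, with 10 of 12 siRNA injected oocytes below the non-injected median. The means were 61.2 ± 31.5 RPM in siRNA injected and 81.2 ± 39.9 RPM in non-injected oocytes (SD, n = 12 each). Their difference was smaller than the SD of either group.

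The 3 remaining H/ACA rows of this abundance had positive fold changes that did not pass. SNORA42 (ENSBTAG00000047431) averaged 17.5 ± 9.999 RPM in siRNA injected and 15.3 ± 10.1 RPM in non-injected oocytes. SNORA63, in human from an EIF4A2 intron, averaged 11.4 ± 10.5 RPM in siRNA injected and 8.71 ± 9.83 RPM in non-injected oocytes. SNORA33 (ENSBTAG00000042518), in human from an RPS12 intron, averaged 10.7 ± 8.14 RPM in siRNA injected and 10.005 ± 7.997 RPM in non-injected oocytes (SD, n = 12 each). Their log2 fold changes were 0.17, 0.31 and 0.06 (limma adjusted p = 0.869, 0.757 and 0.965), with SNORA42 between 0.01 and 0.36 as each oocyte was left out, and for SNORA33 and the SNORA48 row ENSBTAG00000045293 the sign turned in 1 or more of the alternatives tried.

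**Figure D5:**
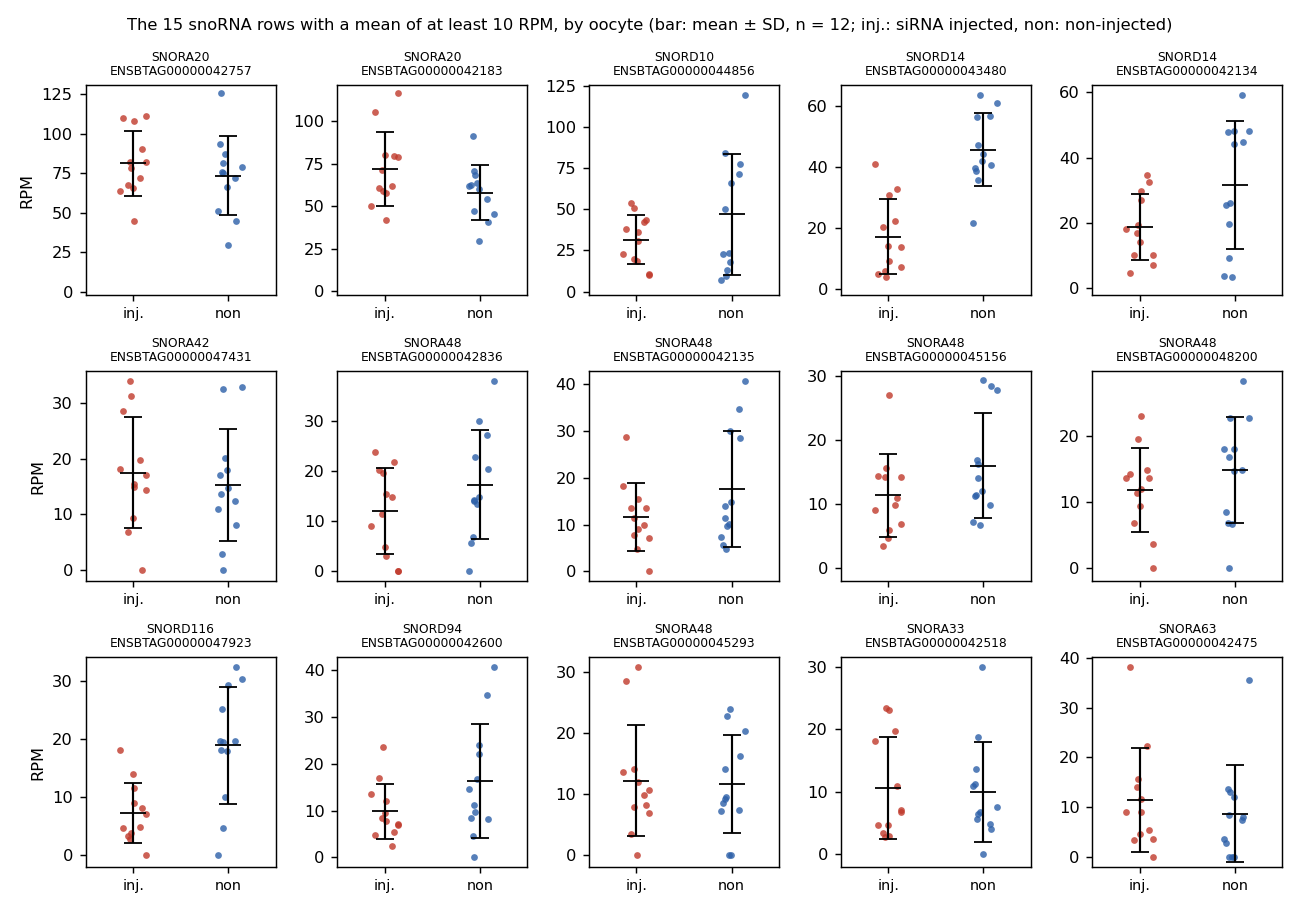
RPM per oocyte of the 15 snoRNA rows with a mean of at least 10 RPM, siRNA injected (inj., red) left of non-injected (non, blue), with mean and SD (n = 12 each). The SNORD14 row ENSBTAG00000043480, which limma called, averaged 17.1 RPM in siRNA injected and 45.6 RPM in non-injected oocytes, while the groups overlap in the SNORA20 rows.

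The rows below 10 RPM were reached with edgeR on the recovered UMIs of all 11741 rows with at least 10 UMIs. At an unadjusted p under 0.05, 11 of 47 box C/D rows (23.4%) and 0 of 32 H/ACA rows were found, the 11 all lower in siRNA injected oocytes, where 4.16% of all rows were lower and 5.13% higher at that p. With Benjamini-Hochberg adjustment over all rows only the SNORD14 row above stayed under 0.05 (edgeR log2 fold change -1.41, adjusted p = 0.0329), where 0.017% of all rows were called, and the adjusted p of the other 10 was 0.105 or more. The 11 rows were both abundant SNORD14 rows, 5 SNORD116 rows, SNORD71, SNORD33, SNORD57 and SNORD41.

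SNORD71 held 6 UMIs in siRNA injected and 32 UMIs in non-injected oocytes. It measured 0 to 4.77 RPM (median 1.23) in siRNA injected oocytes, at most 1 UMI in each, and 0 to 19.7 RPM (median 6.76) in non-injected oocytes, with an edgeR log2 fold change of -2.10 (adjusted p = 0.105). All 12 siRNA injected oocytes were below the non-injected median, and non-injected oocyte 11 was at 0. SNORD33, in human a guide of ribosomal RNA methylation from an RPL13A intron, held 9 UMIs in siRNA injected and 33 UMIs in non-injected oocytes in its leading row (ENSBTAG00000042377; edgeR log2 fold change -1.67, adjusted p = 0.257). SNORD57, in human from a NOP56 intron, held 10 UMIs in siRNA injected and 27 UMIs in non-injected oocytes, and SNORD41 (ENSBTAG00000043778) held 10 UMIs in siRNA injected and 24 UMIs in non-injected oocytes. At such counts a single oocyte contributed 0 to 9 UMIs, and none of these rows passed.

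Fewer box C/D rows were detected above 0 RPM in siRNA injected oocytes, while H/ACA rows were detected about as often in both groups. In at least 6 of 12 oocytes, 24 box C/D rows were above 0 in the siRNA injected group and 36 in the non-injected group, and 25 H/ACA rows in the siRNA injected and 22 in the non-injected group. Over both classes that is 19.5% of snoRNA rows in siRNA injected oocytes, against 23.1% in non-injected oocytes, while over all 17071 rows the shares were 62.7% in siRNA injected oocytes, against 62.0% in non-injected oocytes. A single siRNA injected oocyte showed 28.4 ± 7.90 box C/D rows and a non-injected oocyte 39.3 ± 14.7, and for H/ACA rows the number was 34.2 ± 9.03 per siRNA injected and 34.0 ± 10.4 per non-injected oocyte (SD, n = 12 each). Detection depends on depth, so each oocyte was also thinned to 134080 UMIs. An siRNA injected oocyte then showed 16.5 ± 3.53 box C/D rows and a non-injected oocyte 26.2 ± 8.14, and for H/ACA rows the number was 22.3 ± 7.25 per siRNA injected and 23 ± 6.24 per non-injected oocyte (SD, n = 12 each). The counts per group depended on the rule, given here as siRNA injected against non-injected. In at least 6 thinned oocytes, box C/D rows numbered 8 against 22 and H/ACA rows 16 against 17. With at least 10 RPM in at least 6 oocytes, they numbered 4 against 5 and 12 against 8. Above 0 in all 12 oocytes, they numbered 4 against 3 and 6 against 4.

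Fisher's exact test of detection, two-sided and adjusted over 10552 rows, called 0 of 231 snoRNA rows and 0 of all rows. At an unadjusted p under 0.05 it found 4 snoRNA rows, all of box C/D, 3 in fewer and 1 in more siRNA injected oocytes, where 0.426% of all rows were found in fewer and 0.502% in more. SNORD99, SNORD121A and the SNORD91 row ENSBTAG00000042387 were each above 0 in 0 siRNA injected and 5 non-injected oocytes (exact unadjusted p = 0.0373, adjusted p = 1.0). SNORD16 was above 0 in 7 siRNA injected oocytes and in 1 non-injected oocyte (exact unadjusted p = 0.0272, adjusted p = 1.0).

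The genes of the snoRNA-protein particles were well captured. All 23 listed genes had a row and 20 passed the 10 RPM filter, among them the box C/D methyltransferase fibrillarin (FBL, 40.8 ± 21.7 RPM in siRNA injected and 45.6 ± 14.2 RPM in non-injected oocytes) and the H/ACA pseudouridine synthase dyskerin (DKC1, 923 ± 137 RPM in siRNA injected and 925 ± 194 RPM in non-injected oocytes; SD, n = 12 each). limma called 0 of the 20, and 3 had an unadjusted p under 0.05, all lower in siRNA injected oocytes, beside 12.4% of all rows tested at that p (5.72% lower). These were NOLC1, a nucleolar chaperone of the particles (log2 fold change -0.37, adjusted p = 0.350), TGS1, which hypermethylates snoRNA caps (-0.40, adjusted p = 0.351), and RRP9, a protein of the U3 particle (-0.46, adjusted p = 0.384). The list's median log2 fold change was -0.05, beside 0.02 over all 7256 rows.

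Of 52 genes known as snoRNA hosts in human, 32 had a row and 26 were tested. Of these, 1 was called by limma, beside 0.221% of all rows tested in either direction. EIF4G2, a translation factor related to eIF4G, fell in siRNA injected oocytes, to 888 ± 160 RPM against 1249 ± 194 RPM in non-injected oocytes (SD, n = 12 each; log2 fold change -0.50 with a standard error of 0.11, limma adjusted p = 0.0417), with all 12 siRNA injected oocytes below the non-injected median. With edgeR on the same rows no gene was called, EIF4G2 included. SNORD97, which EIF4G2 hosts in human, held 11 UMIs in siRNA injected and 22 UMIs in non-injected oocytes, too few for the limma test. Of the 22 UMIs, 8 were in non-injected oocyte 10 and 6 in non-injected oocyte 12. With edgeR on the rows with at least 10 UMIs, SNORD97 did not pass (log2 fold change -0.86, adjusted p = 0.695). The median log2 fold change of the 26 hosts was 0.00.

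The listed human hosts of SNORD14, SNORD10, SNORA48, SNORA20, SNORA63 and SNORA33 were not called. Hosts of SNORD116, SNORD94 and SNORA42 were not among the genes listed. RPS13 and HSPA8 host the SNORD14 copies of human; RPS13 had 203 ± 51.2 RPM in siRNA injected and 163 ± 36.1 RPM in non-injected oocytes (0.29 on the log2 scale, adjusted p = 0.402) and HSPA8 had 656 ± 193 RPM in siRNA injected and 669 ± 176 RPM in non-injected oocytes (-0.03, adjusted p = 0.960). EIF4A1, host of SNORD10 and SNORA48, changed by 0.10 on the log2 scale (adjusted p = 0.689) and TCP1, host of SNORA20, by 0.02 (adjusted p = 0.976), neither past the test. The smallest p after EIF4G2 belonged to NAP1L4 (0.39, adjusted p = 0.251), RPS2 (-0.33, adjusted p = 0.272) and RPS13. Which bovine gene holds which snoRNA row could not be read from the annotation used here, so host and guest are paired only by what is known in human, and the difference between them was not tested.

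The box C/D snoRNA U3 stands in the table under rows of its own name without SNORD, which are not counted above. Its 20 rows summed to 1158 ± 578 RPM in siRNA injected and 1400 ± 798 RPM in non-injected oocytes, with 8 of 12 siRNA injected oocytes below the non-injected median. The spliceosomal U1 rows, another class of RNA without a poly(A) tail, summed to 1898 ± 1285 RPM in siRNA injected and 1346 ± 798 RPM in non-injected oocytes (SD, n = 12 each). The spliceosomal U2 rows summed to 216 ± 110 RPM in siRNA injected and 242 ± 176 RPM in non-injected oocytes (SD, n = 12 each). A further 26 rows have a symbol starting with lower-case sno and are not counted above either. They summed to 112 ± 44.7 RPM in siRNA injected and 136 ± 46.8 RPM in non-injected oocytes (SD, n = 12 each). Of the 12 siRNA injected oocytes, 4 were below the non-injected median for U1, 6 for U2 and 9 for the sno rows. The ranges overlapped widely in each set, and no sum was tested.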

How the data were processed

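Libraries of single oocytes were made with CEL-seq2. Reads were mapped by the authors against cDNA sequences, repeated reads of a UMI in a gene were collapsed, and the result was deposited as RPM, in 24 columns that were all used; build UMD 3.1 is named in the submitters' processing notes, and of the aligner nothing is given in the sources used here. UMI counts were recovered by undoing the deposited RPM scaling and a correction for repeated UMIs. The capacity of this correction, 4048, was found from the values and is not stated in the sources. With it, 100% of values came out whole within 0.001. These counts gave depth and entered edgeR 4.0.16 and DESeq2 1.42.0 as alternatives. Rows averaging at least 10 RPM were tested with limma 3.58.1 (trend; R 4.3.3) on log2(RPM + 5), and p-values were adjusted by Benjamini-Hochberg over all of them. Detection was tested with Fisher's exact test in Python 3.11.15 with scipy 1.17.1. Fold changes of limma are on the log2(RPM + 5) scale, which understates changes of low rows. Those of edgeR and DESeq2 come from the recovered UMI counts. The fits were tested on simulated data.

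Named rows are the called rows, all snoRNA rows with a mean of at least 10 RPM, rows sharing a called row's symbol, the 4 with the smallest detection p, list members called or among the 4 with the smallest p, and hosts. SNORD71, SNORD33, SNORD57, SNORD41, SNORD18 and SNORD97, FBL and DKC1 were named after their values were seen. The members and lists were chosen with earlier results of these data known. Groups come from titles and genotype labels, since the treatment label is alike for all 24 oocytes. Other oocytes of the study were not analysed here.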

Additional observations from a re-analysis of the deposited data

How the results depend on the processing

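The SNORD14 row ENSBTAG00000043480 kept its direction in all 34 alternatives that gave it an adjusted p (log2 fold change -1.65 to -1.14, adjusted p = 0.005 to 0.0569). The count of called snoRNA rows was 0 without a filter on low values (adjusted p = 0.0562), with edgeR on the same rows, which called 0 of all 7256 rows and found 841 at an unadjusted p under 0.05, and with DESeq2 on the same rows or on all rows above 0, chosen after seeing the data, where DESeq2 gave the row no adjusted p (unadjusted p = 7.82e-07). Leaving out each oocyte gave 0 to 1 called rows. The number of rows called lower in siRNA injected oocytes over the whole table moved too: limma called 10, or 33 with a filter at 30 RPM, and DESeq2 74.

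Rows detected in at least 6 oocytes numbered 49 in siRNA injected oocytes, against 58 in non-injected oocytes. In siRNA injected oocytes they numbered 16 with at least 10 RPM asked for, 24 after thinning, 190 where above 0 in at least 1 oocyte and 10 where above 0 in all 12. In non-injected oocytes these numbers were 13, 39, 208 and 7. The difference of the sums, siRNA injected minus non-injected, was -181 to -130 RPM for box C/D, 10.4 to 43.0 RPM for H/ACA and -159 to -87.0 RPM for all snoRNA rows as each oocyte was left out. The count of 40 lower box C/D rows was 38 to 42 when each oocyte was left out and 41 with TMM scaling, and that of 10 H/ACA rows was 9 to 15 and 13, alternatives chosen after seeing the data. A replicate block left the called row at -1.36 (adjusted p = 0.0244) and changed no snoRNA call, while rows called lower over the whole table numbered 5 with it and 10 without. Same-numbered oocytes correlated weakly, from -0.12 to 0.17 over the 12 pairs, and the 2 highest values were 0.171 and 0.128. Of the 12 siRNA injected oocytes, 1 matched its own number best, so the numbers were not taken as pairs. Depth limits the 210 rows under 24 UMIs. edgeR tested only those with at least 10 UMIs, and none of these passed after adjustment. limma without a filter called 0 of 16442 rows and Fisher's exact test 0 of 10552 rows. These 2 results therefore say nothing particular about the rows under 24 UMIs.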
